A study of Mus musculus with 6 samples.

Results

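Cytosolic ribosomal protein genes encode the proteins of the large and small subunits of the ribosome that translates nuclear mRNA. Each ribosome carries nearly all of these proteins in equal number, and their mRNAs are among the most abundant in growing embryonic cells. Most begin with a run of pyrimidines, the 5′ terminal oligopyrimidine (TOP) tract, through which the growth-regulating kinase complex mTORC1 controls their translation, so mRNA level is only 1 layer of their regulation. Loss of a single copy of some of them gives tissue-restricted defects in the mouse, such as the short tail and altered vertebral pattern of Rpl38 mutants.

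The members were all probe sets whose annotation gave exactly 1 gene symbol and whose symbol was that of a cytosolic ribosomal protein (Rpl or Rps with a number, Rplp0 to Rplp2, or Rpsa; the S6 kinases were left out). This gave 100 of 45101 probe sets and 46 genes, 24 of the large and 22 of the small subunit. RefSeq lists 81 protein-coding symbols of this form, of which 45 were covered. Another 28 occurred only on probe sets with several symbols, among them Rpl3, Rpl5 and Rplp1, and were not analysed here. Rplp1, Rpl24, Rps27a and Rpl10l therefore have no values. The remaining member, Rps4l, is annotated by RefSeq as a transcribed pseudogene.

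The arrays compared cells sorted from mouse embryos heterozygous for Noto-GFP, a reporter of the node and the early notochord, on a mixed 129S3;ICR background at embryonic day 8.5 (median somite number 6). The tissue behind the boundary of the somites SI and SII was pooled from 23, 39 or 52 embryos, dissociated with 1% trypsin and sorted, with about 2600, 4300 and 6600 GFP-positive cells from pools 1, 2 and 3. Each pool gave 1 array of GFP-positive and 1 array of GFP-negative cells, so each group has 3 arrays and every embryo carried the reporter allele. Both groups are pools of embryos of mixed sex, and the GFP-negative group holds all other posterior cell types.

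Intensities are linear array signals, each array scaled by the authors to a mean of 150 after trimming 2% at either end. Tests used log2(intensity + 32), limma and Benjamini-Hochberg adjustment over all 12628 genes tested, with a threshold of 0.05; a log2 fold change is GFP-positive minus GFP-negative on that scale, and understates changes of dim genes. Both arrays of pool 1 had control 3′ over 5′ ratios far from the others, at 14 and 15.4 for Gapdh against 1.60 to 2.22 on the other 4 arrays. The sort was visible in marker genes: 11 of 14 measured node and notochord genes were higher, with a summed intensity of 13129 to 15703 on GFP-positive and 1925 to 2881 on GFP-negative arrays. Foxa1, a forkhead factor of the notochord, had 746 to 1512 against 26.1 to 30.5. Of 13 endothelial and blood genes measured among 15 listed, 6 were lower, with sums of 1327 to 6979.5 against 14118 to 31075. Of the 13, 1 had a log2 fold change above 0 (0.35). Of 10 lateral mesoderm genes 7 were lower (sums of 439 to 741 against 2688 to 6042), and of 11 presomitic and somite genes 5 were higher (5983 to 7476 against 2369 to 2815). Of 9 neural plate genes 1, Nkx1-2, was lower, and of 9 gut endoderm genes 3 (Apela, Spink1 and Trh) were higher. Over all genes 2.6% were higher and 1.41% lower. The neural plate and gut endoderm lists also held genes going the other way, with 3 neural plate genes above 0 and 1 gut endoderm gene, Hnf4a, below 0 (-0.85). At an unadjusted limma p under 0.05, 1 neural plate gene was higher (Hes5) and 4 lower. By the same measure 6 gut endoderm genes were higher and 1, Hnf4a, lower. The part of these other cell types in the values below was not tested. In such bulk samples a smaller share of cells of 1 type and less RNA per cell cannot be told apart.

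The start of several members in the RefSeq table (build GRCm38.p6) shows such a pyrimidine tract. The lines below give 40 bases, 20 before and 20 from the annotated start onward, 5′ to 3′ on the coding strand, with the longest unbroken run of C and T in capitals. Rplp2, Rpl38, Rps6 and Rps10 show the tract in genes of the stalk and of both subunits, and Rpl37 and Rps4x show annotated starts without one. Rps4l, the gene that passed in the comparison, has no window here.
Rplp2 (chr7:141447631-141447670, plus strand): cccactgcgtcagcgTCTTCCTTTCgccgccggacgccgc
Rpl38 (chr11:114668560-114668599, plus strand): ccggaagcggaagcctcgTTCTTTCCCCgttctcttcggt
Rps6 (chr4:86857348-86857387, minus strand): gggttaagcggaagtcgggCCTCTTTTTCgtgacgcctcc
Rps10 (chr17:27635225-27635264, minus strand): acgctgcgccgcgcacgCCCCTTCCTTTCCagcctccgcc
Rpl37 (chr15:5116593-5116632, plus strand): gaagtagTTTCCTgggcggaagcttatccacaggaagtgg
Rps4x (chrX:102189372-102189411, minus strand): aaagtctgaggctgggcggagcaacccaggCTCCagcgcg

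The run was 10 bases long in Rplp2, Rpl38 and Rps6 and 13 in Rps10, and overlapped the annotated start in all of these. In Rpl37 and Rps4x the longest runs were 6 and 4 bases and lay away from it. Of 40 member genes with an entry, 8 had a C at an annotated start followed by at least 4 bases that were C or T (20%), against 3.01% of 27025 genes. The letters CTTTC occurred in the 40-base window of 12 of the 40 (30%) on the coding strand and of 1 (2.5%) on the other strand, against 6.44% and 5.67% of all genes. These are descriptions of annotated letters only, since an annotated start can lie some bases from the one used in these cells. The 8 genes with the tract had a median log2 fold change of -0.08, and the 29 measured genes without it also had -0.08.

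Ribosomal protein mRNAs as a family had no shift between Noto-GFP-positive cells and the rest of the posterior embryo that was larger than the spread between pools. Of the 46 genes 43 were measured, meaning that a probe set reached the 40th percentile on at least 3 of 6 arrays. Over all genes tested 1 of the 43 was higher (Rps4l, beside 2.6% of all genes), and 0 were lower in limma (1.41% of all genes, and 4.01% in either direction). At an unadjusted p under 0.05, 2 were higher (Rps4l and Rps24) and 1, Rpl37, lower, where 12% and 9.67% of all genes were. The median log2 fold change of the 43 was -0.08, against 0.01 over all genes tested. Of the 43, 40 lay within 0.5 of 0, a larger share than the 73.8% of all genes. This holds for the brightest probe set of each gene, and other probe sets of some genes, described below, lay farther from 0. Of the 43, 28 averaged at least 4000, where the 99th percentile of all probe sets was 4186 to 5127 by array. The part of signal level in this share was not tested.

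**Figure D1:**
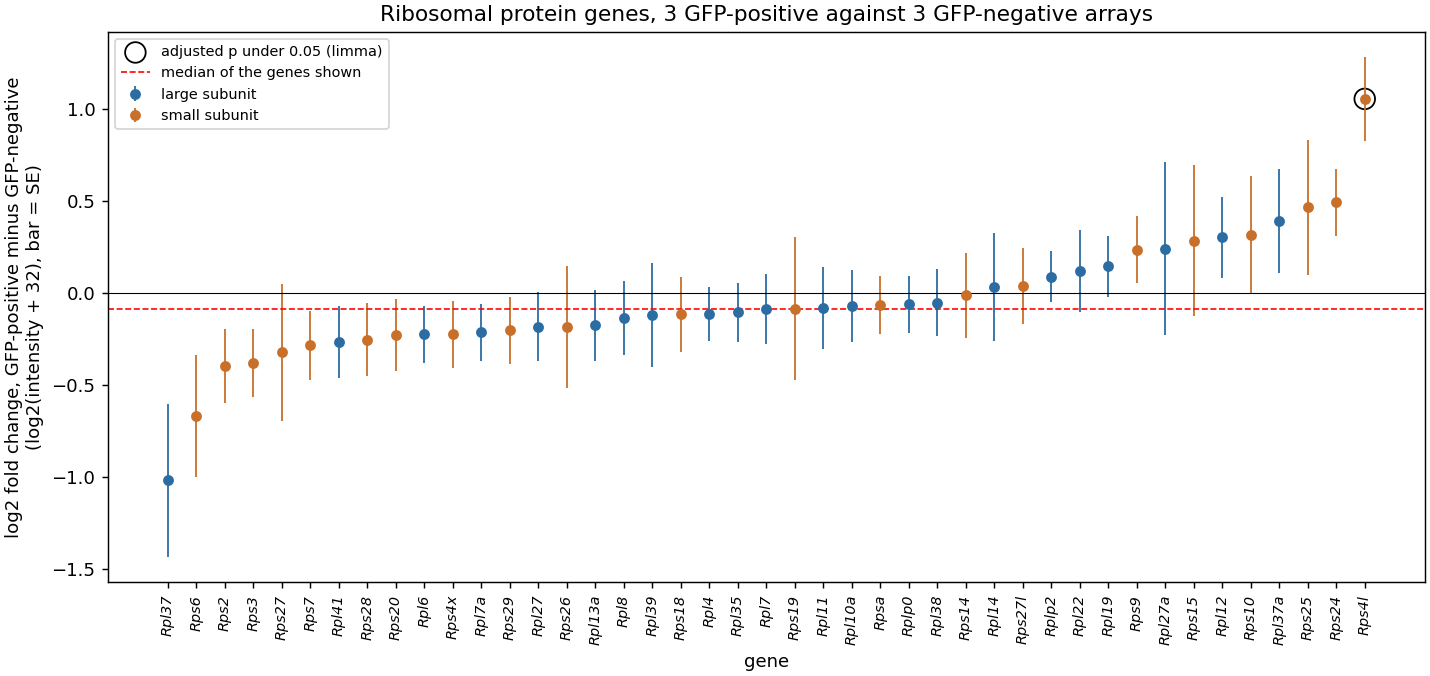
Log2 fold change (GFP-positive minus GFP-negative, log2(intensity + 32)) of each of the 43 measured genes, ordered by value, with bars of 1 SE from limma; blue is the large and orange the small subunit. Of the 43 genes, 40 lie within 0.5 of 0, and the circled Rps4l at 1.06 is the 1 gene that passed.

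Both subunits had medians near 0. The 22 large subunit genes had a median of -0.08 and ranged from -1.02 (Rpl37) to 0.39 (Rpl37a), with 0 passing in either direction in limma and 1, Rpl37, lower at an unadjusted p under 0.05. The 21 small subunit genes had a median of -0.11 and ranged from -0.67 (Rps6) to 1.06 (Rps4l). Standard errors of the 43 genes lay between 0.14 and 0.47, with a median of 0.20, against 0.23 over all genes.

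The direction of the family median differed between pools. GFP-positive minus GFP-negative, the median of the 43 genes was -0.25 in pool 1, 0.17 in pool 2 and -0.20 in pool 3, where the medians over all genes were 0.03, 0.02 and 0.00. The standard deviation of the pool medians was 0.23, larger than the median of -0.08 itself. The same sign in all 3 pools was seen for 3 genes above 0 (Rps4l, Rps24 and Rpl19) and 9 below 0, where 28.4% and 24.9% of all genes had this. The 9 were Rpl37, Rps6, Rps2, Rps3, Rpl41, Rps28, Rpl6, Rpl7a and Rps4x. These signs are those of the brightest probe set of each gene. Other kept probe sets had a log2 fold change of the opposite sign in Rps24 (5), Rpl41 (2) and Rps3 (1). All GFP-positive arrays lay above all GFP-negative arrays in 2 genes (Rps4l and Rps24) and below them in 1 (Rpl7a), beside 15.6% and 12.2% of all genes.

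**Figure D2:**
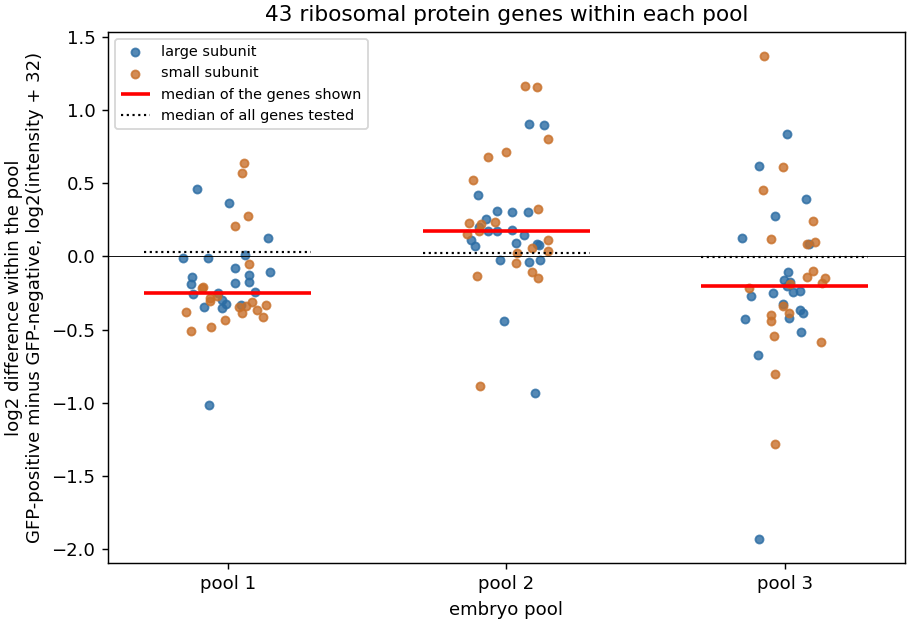
Difference within each embryo pool (GFP-positive minus GFP-negative, log2(intensity + 32)) for the 43 genes; each point is a gene, the red line their median and the dotted line the median over all genes tested. The red line sits at -0.25, 0.17 and -0.20 in pools 1, 2 and 3.

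The balance of signs also moved with the scaling of the arrays. With the authors' scaling 14 of the 43 were above 0 and 29 below. Quantile normalization turned this to 32 and 11, with a median of 0.10 where that of all genes was 0.05, while cyclic loess gave 17 and 26 and a median of -0.04. The same gene, Rps4l, passed under all 3. No direction is therefore stated for the family.

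The P stalk is the arm of the large subunit that recruits elongation factors, and its core protein Rplp0 binds pairs of Rplp1 and Rplp2. Rplp0 had intensities of 8233, 8444 and 8047 on the GFP-positive and 8722, 7469 and 9733 on the GFP-negative arrays of pools 1, 2 and 3. The groups overlapped, and its log2 fold change was -0.06 ± 0.15 (SE, limma adjusted p = 0.847), a sign that quantile normalization and cyclic loess turned (0.20 and 0.022). Rplp2 had 7577, 7960.4 and 7860.5 against 7649, 6920.3 and 7421, and a log2 fold change of 0.09 ± 0.14 (adjusted p = 0.741). The SD over the GFP-positive arrays was 199 for each, and both groups overlapped. Rpl12, which sits at the base of the stalk, had 489.8, 525 and 514 against 493, 420.1 and 324. Its log2 fold change was 0.30 ± 0.22 (adjusted p = 0.449), and the values of pool 1 were close to each other.

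Other large subunit members with a defined place were close to 0. Rpl11, part of the 5S RNA particle that also binds Mdm2, had a log2 fold change of -0.08 ± 0.22 and within-pool differences of 0.36, 0.08 and -0.67. Of the list of peptidyl transferase and exit tunnel proteins 4 of 9 were measured (Rpl4, Rpl10a, Rpl35 and Rpl39), with values between -0.12 and -0.07. In limma 0 of the 4 passed, also at an unadjusted p under 0.05, where 4.01% and 21.7% of all genes did. The probe set of Rpl39 was dim, at 54.5 to 139.

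Rpl38 is the member best known for axial patterning, through its part in the translation of Hox mRNAs. Its intensities were 6957, 6771 and 6303 on the GFP-positive and 7609, 5469 and 7925 on the GFP-negative arrays. The GFP-positive values lay inside the GFP-negative range, with means of 6677 ± 337 and 7001 ± 1336 (SD, n = 3). The log2 fold change was -0.05 ± 0.18 (limma adjusted p = 0.896). Quantile normalization (0.13) and cyclic loess (0.016) gave the other sign.

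Of a list with developmental phenotypes in the mouse, 8 members were measured: Rpl38, Rps19, Rps20, Rpl27a, Rps7, Rps6, Rpl22 and Rpl11. In limma 0 of the 8 passed, also at an unadjusted p under 0.05, and their median was -0.08. Over all genes 4.01% passed in either direction, and 21.7% had an unadjusted p under 0.05. Rps19, the gene most often mutated in Diamond-Blackfan anaemia, split by pool and not by sort. In pool 1 it had 2459 in GFP-positive and 3103 in GFP-negative cells, and 5164 to 6494 on the other 4. Rpl27a had 856, 942 and 783 on GFP-positive arrays and 1759.5, 488 and 425 on GFP-negative arrays, so that GFP-negative array 1 lay above and the other GFP-negative arrays below all GFP-positive arrays.

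Rps6, the small subunit protein phosphorylated by S6 kinases downstream of mTORC1, was lower on each GFP-positive array than on its GFP-negative partner. It had 884, 1317 and 1322 on GFP-positive and 1102, 2462 and 2337 on GFP-negative arrays. The pool 1 GFP-negative array lay within the GFP-positive range, so the groups overlapped. The log2 fold change of -0.67 ± 0.33 did not pass in limma (adjusted p = 0.278), and it passed once pools were blocked (adjusted p = 0.0405 over genes, but 0.0508 over probe sets). With the block, 1 of the 43 was higher (Rps4l) and 1 lower (Rps6), where 8.4% and 6.76% of all genes were. The other Rps6 probe set lay at 8.34 to 10.8 on all arrays and was not kept.

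Rpl37, a zinc-binding protein of the large subunit, had the lowest log2 fold change of the family. It had 1254, 468 and 395 on GFP-positive and 1435, 923 and 1593 on GFP-negative arrays. Values were high on both arrays of pool 1 and apart in pools 2 and 3, with within-pool differences of -0.19, -0.93 and -1.93. Its log2 fold change of -1.02 ± 0.42 did not pass without the block (limma adjusted p = 0.204) or with it (0.0516). Without GFP-positive array 1 it was -1.51 and passed (adjusted p = 0.0375), when 1.52% of all genes were lower and 2.34% higher.

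Rps2 and Rps3, which line the mRNA entry channel, and Rps7, a protein of the small subunit body, followed among the lower values. Rps2 had 9621, 7597 and 7627 on GFP-positive and 13481, 8438 and 11158 on GFP-negative arrays, a log2 fold change of -0.39 ± 0.20. Rps3 and Rps7 had -0.38 ± 0.19 and -0.28 ± 0.19. None of the 3 passed in limma (adjusted p = 0.292, 0.276 and 0.41), and the highest intensity of each was on GFP-negative array 1. The remaining kept probe sets of Rps3 and Rps7 lay above 0, at 0.26 for each gene, so no direction is given for either gene. Rps27 was dim at 12.2 to 105, with a log2 fold change of -0.32 ± 0.37 that rests on GFP-negative array 3; without that array it was 0.16.

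GFP-negative array 1 was the highest array for most of the brightest members. Of the 28 genes with a mean intensity of at least 4000 over the 6 arrays, a value chosen after seeing the data, 19 were highest there. Of the 28, 24 had a log2 fold change below 0, with a median of -0.12, and of the other 15 genes 5 did, with a median of 0.15. The 99th percentile of all probe sets was 5127 on that array and 4186 to 4522 on the others. The 43 genes held 4.47% of the summed intensity of all genes tested on it, 3.45% and 4.09% on the other GFP-negative arrays and 3.58% to 3.95% on GFP-positive arrays. The part of the array's bright end in these values was not tested beyond the normalizations above.

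Rps4l was the 1 gene that rose. It is an autosomal relative of the X-linked Rps4x, on chromosome 6, and RefSeq annotates it as a transcribed pseudogene. Its probe set had 467, 588 and 535 on GFP-positive and 288, 245 and 188 on GFP-negative arrays. All GFP-positive values lay above all GFP-negative values, with means of 530.0 ± 60.5 and 240.4 ± 50.3 (SD, n = 3). The log2 fold change was 1.06 ± 0.23 (limma adjusted p = 0.043), and within pools it was 0.64, 1.16 and 1.36.

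Without the pool as a term the call for Rps4l was near the threshold, and with pools blocked its adjusted p was 0.0124 (0.0174 over probe sets). Without the block it was lost when any 1 array other than GFP-negative array 1 was left out (adjusted p = 0.051 to 0.196, at values of 0.91 to 1.14), and also without pool 2 or pool 3 (0.62 and 0.518, at 1.00 and 0.90). In the blocked fit it was lost without pool 2 (adjusted p = 0.083) and passed without pool 3 (0.0423). In the unblocked fit adjusted over probe sets in place of genes, 0 of the 93 kept member probe sets passed in limma, where 1.26% of all probe sets were higher and 0.55% lower. Before adjustment, 4 had p under 0.05 with a value above 0 and 2 with a value below 0, where 8.89% and 10% of all probe sets did. Its X-linked relative Rps4x had 11179, 9131 and 9008 against 14144, 9854 and 10476, a log2 fold change of -0.22 ± 0.18 (adjusted p = 0.506). Rps4x and Rps4l are related copies, so how far the Rps4l probe set also binds other copies is uncertain. The difference between both probe sets was not tested.

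**Figure D3:**
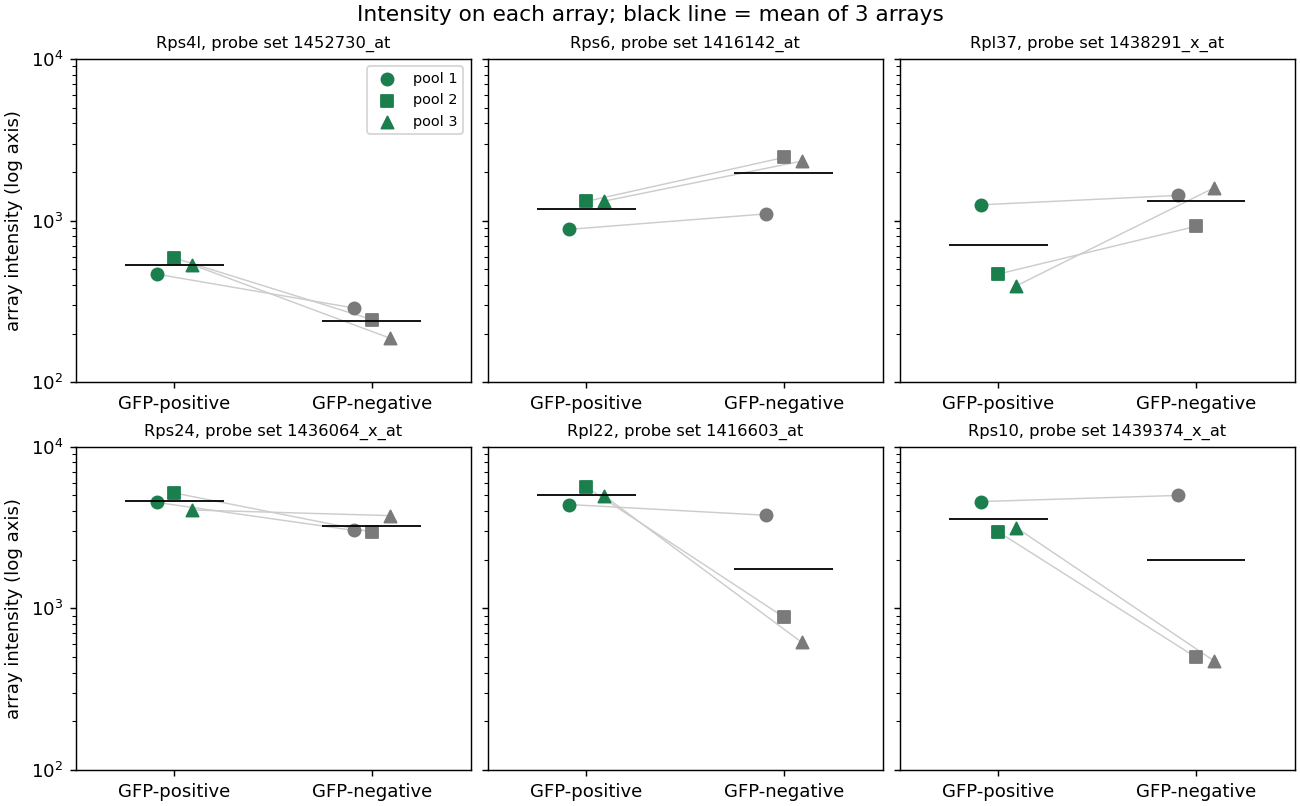
Array intensity (log axis) of 6 member probe sets in GFP-positive (green) and GFP-negative (grey) cells; symbols mark the pool, thin lines join arrays of 1 pool and black lines are means of 3 arrays. Rps4l is higher on all 3 GFP-positive arrays, while the Rpl22 and Rps10 probe sets are low only on the GFP-negative arrays of pools 2 and 3.

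Of the other paralogues, Rps27l was measured and did not pass. This relative of Rps27 is known as a p53 target. It had 1738, 1742 and 1817 against 2120.4, 1389 and 1716, and a log2 fold change of 0.04 ± 0.21 (limma adjusted p = 0.93). Its GFP-negative values spanned all GFP-positive values, and its sign was negative without pool 2 (-0.10). Rpl3l, known from striated muscle, lay at 1.30 to 15.7 and Rpl39l, known from testis, at 1.01 to 13.4 on all arrays, and neither was kept by the filter. The probe set of Rps16 had 0.23 to 1.08, and with no other probe set this gene was not measured.

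Rps24, a small subunit protein also mutated in Diamond-Blackfan anaemia, had the next highest value after Rps4l. It had 4522, 5171 and 4059 on GFP-positive and 3033, 2961 and 3745 on GFP-negative arrays, which did not overlap. The log2 fold change of 0.49 ± 0.18 did not pass in limma (adjusted p = 0.163). Each of its 5 other kept probe sets had a value below 0, down to -0.63, so no direction is given for Rps24.

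A further 4 genes were near the upper end, and for these pool 1 differed from the other pools. Rps25, known for its part in initiation at internal ribosome entry sites, had 1091, 1320.1 and 846 against 1412, 574 and 544. Rps10 and Rpl37a had within-pool differences of -0.21, 0.71 and 0.45, and of -0.11, 0.89 and 0.39. Their log2 fold changes were 0.47 ± 0.37, 0.32 ± 0.32 and 0.39 ± 0.28, and none passed in limma (adjusted p = 0.485, 0.592 and 0.448). Rpl12, described above, was the fourth. Both other kept probe sets of Rpl37a were below 0, at -0.50 and -0.47, so no direction is given for Rpl37a.

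Calls among the members changed with the pools used, as did those over all genes. Without pool 2 or pool 3, 0 of the 43 passed in limma, and over all genes 5 were higher and 0 lower, or 32 and 1. Without pool 1, whose control ratios stood apart, 7 of the 43 were higher (Rpl12, Rpl22, Rpl27a, Rpl37a, Rps10, Rps25 and Rps4l) and 2 lower (Rpl37 and Rps6), where 19.3% of all genes were higher and 17.1% lower. When the pool block was added, 9 were higher (adding Rps24 and Rps9) and 3 lower (adding Rps3), beside 22% and 20.2% of all genes. None of the members' shares without pool 1 was above that of all genes. Without GFP-negative array 1 alone, 5 were higher (the same without Rpl12 and Rpl22) and 1, Rps6, lower, where 10.1% of all genes were called in each direction. The median of the family was -0.01 without pool 1 and -0.02 without that array. Over the 43 genes the difference of pool 1 from pools 2 and 3 was larger in size than the difference between sorts in 30, with median sizes of 0.355 and 0.201. The part of RNA quality in these differences was not tested.

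Several genes had probe sets that disagreed. Of 20 genes with at least 2 kept probe sets, all probe sets shared a sign in 6 (Rpl22, Rps9, Rpl35, Rps29, Rps28 and Rps14). The share among all genes with several kept probe sets was not computed. Some disagreeing probe sets were dim, such as 1 of Rps18 at 13.0 to 22.5 and 1 of Rps24 at 10.6 to 45.8. Others were not, such as 1 of Rpl27 at 2043 to 5251, with a log2 fold change of 0.48. Likewise, 1 of Rpl41 lay at 716 to 2060, with 0.54. The 6 probe sets of Rpl35 lay within 0.12 of each other, those of Rps28 within 0.08. By type, kept probe sets ending _x_at had a median of -0.10 (39 probe sets), those ending _a_at -0.10 (26), those ending _at 0.02 (25) and the 3 ending _s_at 0.37. Probe sets ending _x_at or _s_at can bind several transcripts, and those ending _s_at included probe sets of Rpl22. Ribosomal protein genes have many processed pseudogenes, so values of single probe sets are uncertain.

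**Figure D4:**
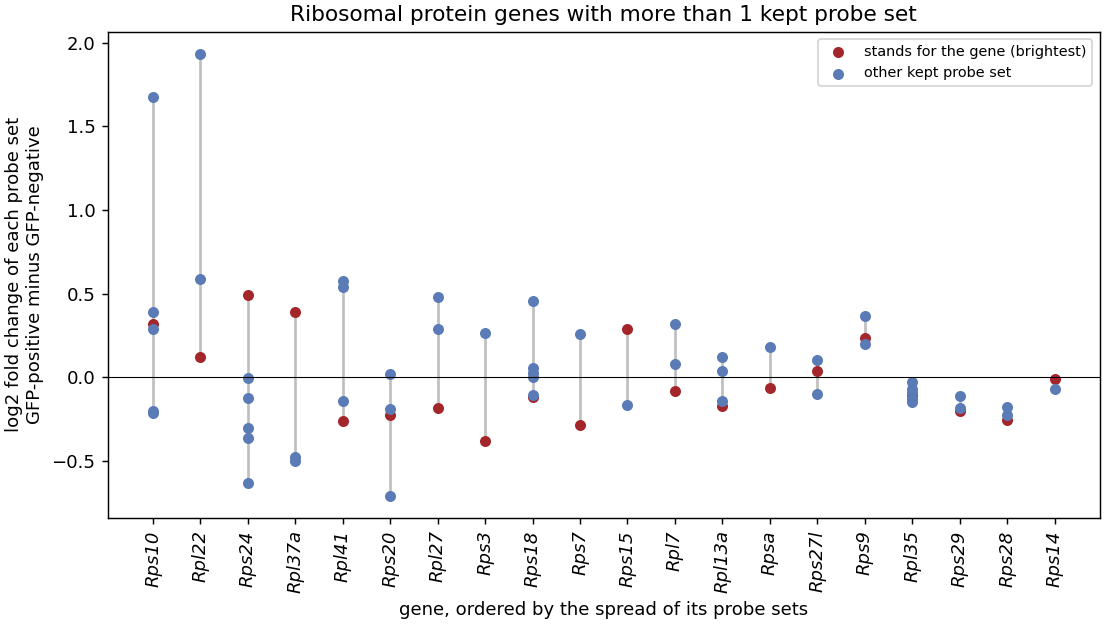
Log2 fold change of every kept probe set of the 20 genes that have at least 2, ordered by the spread within the gene; red is the probe set with the highest mean, which stands for the gene. The spread is 1.89 in Rps10 and 1.81 in Rpl22 and under 0.13 in Rpl35, Rps29, Rps28 and Rps14.

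The widest spreads were in Rps10 and Rpl22. Rpl22, a protein dispensable for general translation but needed in lymphocyte development, had 3 probe sets, all above 0. The one standing for the gene had 8192, 8069.6 and 7462 against 10312, 6021 and 6154, a log2 fold change of 0.12 ± 0.22. The one with the highest log2 fold change, chosen after its values were seen, had 4386, 5613 and 4968 on GFP-positive and 3764, 882 and 617 on GFP-negative arrays. It was high on 4 arrays and low on GFP-negative arrays 2 and 3, with a log2 fold change of 1.93 ± 0.56 (limma adjusted p = 0.126 over probe sets, 0.0359 with the pool as a block). In pool 1 the difference was 0.22, and in pools 2 and 3 it was 2.63 and 2.95.

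Rps10 had 6 kept probe sets, from -0.21 to 1.68. The highest of these had 4574, 2968 and 3157 on GFP-positive and 4994, 498 and 475 on GFP-negative arrays, again low only on GFP-negative arrays 2 and 3. Its value of 1.68 ± 0.78 did not pass (limma adjusted p = 0.288 over probe sets, and 0.0581 with the block). With the block, 2 member probe sets were higher (those of Rps4l and Rpl22) and 1 lower, where 4.93% of all probe sets were called in each direction. The lower one was a dim probe set of Rps20, with 104, 141 and 138 against 220.4, 268 and 197. Its block adjusted p was 0.0432, while the probe set standing for Rps20 had a log2 fold change of -0.23.

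Genes that make, regulate or work with ribosomes were compared from lists. Over all genes, 2.6% were higher and 1.41% lower in limma, and 12% and 9.67% at an unadjusted p under 0.05. Among ribosomal protein genes outside the symbol rule 4 of 9 listed were measured, and 0 passed in limma (at an unadjusted p under 0.05, 1, Rpl7l1, was higher). Rpl7l1 had 0.58 ± 0.21, Rpl22l1, the paralogue of Rpl22, -0.29 ± 0.29, and Fau 0.10 ± 0.26. Of 15 elongation factors and other TOP mRNAs 0 passed (at an unadjusted p, Naca was higher and Nap1l1 lower), with a median of -0.09. The smallest adjusted p were those of Nap1l1 (-0.41 ± 0.14), Naca (0.50 ± 0.19) and Eif4b (-0.43 ± 0.19).

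Of 25 initiation factors 0 were higher and 1, Eif5, lower, beside 2.6% and 1.41% of all genes, with a median of -0.10. At an unadjusted limma p under 0.05, 1 was higher (Eif2b2) and 5 lower, where 12% and 9.67% of all genes were. Eif5, the factor that triggers GTP hydrolysis upon start codon recognition, had 3606, 2533 and 2956 on GFP-positive and 5286, 5169 and 5802 on GFP-negative arrays. It fell by 0.84 ± 0.18 on the log2 scale (limma adjusted p = 0.045 over genes, 0.0634 over probe sets), and the groups did not overlap. Eif4a2 and Eif1ax had -0.68 ± 0.21 and -0.75 ± 0.23 (adjusted p = 0.0423 and 0.0151 over genes under the pool block, where both passed), when Eif3a and Eif5b did so too. Adjusted over probe sets, Eif4a2 did not pass under the block (0.0528). Over genes, the block gave 0 of the 25 higher and 5 lower, where 8.4% and 6.76% of all genes were.

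Of 49 ribosome assembly genes 0 passed in limma, where 2.6% of all genes were higher and 1.41% lower, and the median was -0.06. Unadjusted, 2 had p under 0.05 above 0 and 6 below, beside 12% and 9.67% of all genes. The dynein-like assembly ATPase Mdn1, the nucleolar GTPase Gnl3 and Rpf2, which brings in the 5S particle, had -1.03 ± 0.24, -0.89 ± 0.21 and -0.75 ± 0.18 (adjusted p = 0.0537, 0.054 and 0.0553). Under the block these, Nmd3 and Nvl were lower, 5 of 49 where 6.76% of all genes were, and 0 were higher. Over probe sets the blocked p of Nmd3 was 0.0523. Of 15 genes of RNA polymerase I and its factors 0 passed, beside 2.6% of all genes higher and 1.41% lower, with a median of 0.21. At an unadjusted limma p under 0.05, Polr1b was higher and 0 were lower, where 12% and 9.67% of all genes were. Polr1b, Polr1c and Polr1d had 0.68 ± 0.26, 0.53 ± 0.24 and 0.39 ± 0.20.

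Of 23 measured genes of mTORC1, S6 kinases, TOP regulators and Myc 1 was higher, Mxi1, and 0 lower, beside 2.6% and 1.41% of all genes. Mxi1, which competes with Myc for its partner Max, had 242, 264 and 293 against 127, 137 and 124 and rose by 0.88 ± 0.20 (limma adjusted p = 0.0478 over genes, 0.067 over probe sets). Mga, another Max partner, and the RNA-binding protein Tial1 had -1.19 ± 0.29 and -0.74 ± 0.24. With the block Tsc1 was higher too, and Mga, Tial1, Larp4 and Larp1, a TOP-binding protein, were lower. This made 2 of the 23 higher and 4 lower, where 8.4% and 6.76% of all genes were.

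Of 76 genes for proteins of the mitochondrial ribosome 53 were above 0, with a median of 0.22. Of the 12628 genes tested 6458 were above 0, with a median of 0.01. The mitochondrial sign count was not repeated under other normalizations. Within pools the mitochondrial medians were -0.04, 0.38 and 0.20. Adjusted over all genes, 0 were higher and 1, Mrps33, lower, beside 2.6% and 1.41% of all genes. At an unadjusted p 11 were higher and 1 lower, where 12% and 9.67% of all genes were. With the block 2 were higher and 1 lower, beside 8.4% and 6.76% of all genes. Mrps33 fell from 2393 ± 386 to 1198 ± 249 (SD, n = 3), a log2 change of -0.99 ± 0.22 (limma adjusted p = 0.0481 over genes, 0.0682 over probe sets). Mrps6 and Mrps25 had 0.97 ± 0.24 and 1.16 ± 0.37 and passed only once pools were blocked (adjusted p = 0.0188 and 0.0457 over genes; Mrps25 had 0.0564 over probe sets).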

How the data were processed

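Total RNA was amplified in both cycles of an Affymetrix kit and biotin-labelled, per the labels' protocols. The authors deposited 1-colour probe set intensities on a linear scale from GCOS 1.4, per the submitters' processing notes; detection calls were not used here, and 0 columns of array values went unused. Of 45101 probe sets 64 were controls; 34945 had 1 gene symbol, 932 several, and 9160 were unnamed here.

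Values were taken to log2(intensity + 32). The filter required 3 or more arrays at or above their own 40th percentile, which left 27821 probe sets. limma 3.58.1 in R 4.3.3 (lmFit, eBayes with a variance trend) fitted group as the only term over all kept probe sets. The brightest remaining probe set, by its mean over arrays, stood for each of 12628 genes. The fit was tested on simulated data. Figures used Python 3.11.15.

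Arrays with the same replicate number in their sample titles were taken to come from 1 embryo pool, which the titles do not name. Deviations of such arrays correlated at 0.542, 0.286 and 0.436 in pools 1, 2 and 3. Across pools 2 and 3, GFP-positive array 3 had 0.380 with GFP-negative array 2, and GFP-positive array 2 had 0.279 with GFP-negative array 3. The correlations therefore set pool 1 apart but cannot tell pool 2 from pool 3, where the pairing rests on the replicate numbers alone. The pool as a block was an alternative. Noto had no named probe set. The number of arrays limits the precision. Members and lists were chosen with earlier results of these data known. Named genes were those that passed, the 6 highest and 6 lowest values, stalk proteins, Rps6, Rpl38, paralogues, those passing with the block, and 3 per pathway list by adjusted p; single probe sets of Rpl22, Rps10 and Rps20, and Rps19, Rpl27a, Rpl7a and Rps4x, were chosen after seeing values.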

Additional observations from a re-analysis of the deposited data

How the results depend on the processing

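Of 27 alternatives, 26 gave Rps4l a value, above 0 in each (0.90 to 1.26), and 16 of these kept it past the threshold (adjusted p from 8.34e-07 to 0.62). The remaining one, a threshold of 0.1 on the same values, kept it too. The count of members higher was 0 with no filter (Rps4l at 1.06, adjusted p = 0.0575) and 0 with the filter at the 60th percentile on all 6 arrays (0.0628). With the pool as a block the count lower was 1. Leaving out arrays or pools gave 0 to 7 members higher and 0 to 2 lower, and with the block 0 to 9 and 0 to 3, the highest counts being those without pool 1; the cause was not tested. The family median stayed within its SD over pools, from -0.23 to 0.10. Over all genes, 328 were higher and 178 lower, with 1061 and 854 under the block, 2432 and 2163 without pool 1, 5 and 0 without pool 2, 32 and 1 without pool 3, 114 and 54 with the stricter filter, 226 and 92 with no filter, 649 and 455 at a threshold of 0.1 and, chosen after seeing the data, 372 and 216 with moderation over 1 probe set per gene. Signs turned in 23 of 408 values of named genes, none of which passed. With quantile normalization Rps7, Rplp0 and Rpl38 had 0.013, 0.20 and 0.13, and with cyclic loess Rplp0 and Rpl38 had 0.022 and 0.016. The mean over probe sets gave Rpl37a -0.19 and Rps24 -0.16. Probe sets ending _at gave Rps3 0.26, Rps10 -0.21 and Rps24 -0.0038. Leaving out each pool or array gave -0.11 to 0.20 for Rps27l, -0.66 to 0.16 for Rps27, -0.18 to 0.047 for Rplp0 and -0.23 to 0.089 for Rpl38; with the replicate block, Rps27l had -0.10 without pool 2, and Rps27, Rplp0 and Rpl38 had 0.16, 0.047 and 0.089 without pool 3.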
